A study of Homo sapiens with 14 samples.

Results

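Naive human embryonic stem cells (hESCs) carried 35770 distal regions that were bound by the BAF chromatin remodelling complex, had no counterpart in primed cells and had no peak of the ATPase BRM. They were taken from 77164 naive BAF regions, each made by merging the peaks of BRG1 and BAF155 on chromosomes 1 to 22 and X. Of these, 48305 had no primed BAF region (62.6% of all naive BAF regions), where a counterpart meant that at least 25% of either region was covered. A total of 41674 of them had their midpoint more than 1 kb from every annotated transcript start and are called distal. A naive BRM peak was present at 20.4% of all naive BAF regions, at 5904 of the distal naive-only regions and, by selection, at none of the 35770. These values chose the regions, so the presence, height and width of BRG1, BAF155 and BRM peaks are given below as a description and were not tested.

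The BAF complex moves nucleosomes with the energy of 1 ATPase subunit, either BRG1 (SMARCA4) or BRM (SMARCA2), and BAF155 (SMARCC1) is part of its scaffold. Away from gene starts it is known for keeping enhancers accessible to transcription factors. Naive hESCs resemble the epiblast before implantation and primed hESCs the epiblast after it, and the enhancers in use differ widely between these states.

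Chromatin immunoprecipitation with sequencing (ChIP-seq) was carried out in the established hESC line WIBR3, with 14 samples in all, of which 4 are input libraries not analysed here and 10 came with a peak list. Primed cells were kept in conventional hESC medium, and naive cells were derived from them in 5i/L/A medium, both on mouse feeder cells. BRG1, BAF155 and BRM had 1 library each per state, and SOX2 had a pair of libraries per state with the same peak list, taken here as 1 sample. The naive state therefore stands for 1 converted line, and no value below has a replicate error. The 95% intervals cover counting error within these lists and not the spread between cultures, and regions are not replicates of a condition. Fold is the authors' enrichment of a peak over the input, as a linear ratio, and the fold of a region is that of its highest BRG1 or BAF155 peak. The BRG1 and BAF155 lists ranged from 15611 peaks for primed BRG1 to 62338 for naive BAF155, and the naive BRM list held 17413. With a short primed BRG1 list, the absence of a primed region rested mostly on the 58352 primed BAF155 peaks.

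The sequences that follow show what the central 200 bp of these regions looked like, read from the plus strand of hg38. They come from the strongest regions with peaks of both subunits whose window matched a motif of a factor family known in naive or trophoblast-like cells, with the match in capitals. KLF motifs are GC-box-like letters that KLF4, KLF5 and KLF17 recognise, TFAP2 motifs are read by TFAP2C and its relatives, TEAD factors are the DNA-binding partners of YAP and TAZ, and AP-1 stands for FOS and JUN dimers. In all naive BAF regions, windows of the same length held a KLF match in 7.30%, a TFAP2 match in 13.9%, a TEAD match in 3.90%, an AP-1 match in 6.43% and a SOX match in 20.9%.
KLF, KIF26A locus, chr14:104185099-104185298: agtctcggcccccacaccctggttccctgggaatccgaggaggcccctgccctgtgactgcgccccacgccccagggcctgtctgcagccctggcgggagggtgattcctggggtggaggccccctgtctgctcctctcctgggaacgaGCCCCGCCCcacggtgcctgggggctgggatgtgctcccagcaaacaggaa
KLF, LAMA3 locus, chr18:23756953-23757152: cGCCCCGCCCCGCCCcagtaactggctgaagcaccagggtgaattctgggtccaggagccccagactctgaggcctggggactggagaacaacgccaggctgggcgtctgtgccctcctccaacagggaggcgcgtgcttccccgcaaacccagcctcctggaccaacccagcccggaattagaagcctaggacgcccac
TFAP2, KIRREL3 locus, chr11:126945338-126945537: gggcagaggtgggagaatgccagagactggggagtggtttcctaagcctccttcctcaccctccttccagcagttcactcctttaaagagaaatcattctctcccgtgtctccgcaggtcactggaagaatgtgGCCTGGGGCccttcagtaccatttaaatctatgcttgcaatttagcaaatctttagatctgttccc
TFAP2, TEAD and AP-1, C10orf120 locus, chr10:122727504-122727703: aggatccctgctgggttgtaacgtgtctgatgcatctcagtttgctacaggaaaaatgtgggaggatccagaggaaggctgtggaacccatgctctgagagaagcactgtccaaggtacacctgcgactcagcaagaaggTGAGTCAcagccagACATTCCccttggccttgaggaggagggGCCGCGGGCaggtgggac
TEAD, GRIK4 locus, chr11:120878074-120878273: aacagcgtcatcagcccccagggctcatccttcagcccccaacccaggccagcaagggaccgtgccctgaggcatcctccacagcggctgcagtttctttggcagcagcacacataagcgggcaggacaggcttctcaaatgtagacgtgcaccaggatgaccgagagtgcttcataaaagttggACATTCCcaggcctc
AP-1, FOXE1 locus, chr9:97807776-97807975: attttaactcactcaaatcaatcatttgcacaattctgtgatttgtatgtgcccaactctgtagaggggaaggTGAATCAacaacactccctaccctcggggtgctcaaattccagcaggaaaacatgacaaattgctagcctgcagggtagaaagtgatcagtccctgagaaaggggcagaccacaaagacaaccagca
SOX under a naive SOX2 peak, SMYD3 locus, chr1:246183137-246183336: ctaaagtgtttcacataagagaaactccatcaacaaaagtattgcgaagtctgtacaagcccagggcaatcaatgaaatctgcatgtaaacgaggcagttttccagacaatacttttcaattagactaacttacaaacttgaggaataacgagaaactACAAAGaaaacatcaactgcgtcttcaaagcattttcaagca

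The KIF26A and LAMA3 regions reached a fold of 5.20 and 5.08. The window nearest to C10orf120 matched TFAP2, TEAD and AP-1 together and had a fold of 5.14. The region with a naive SOX2 peak lay near SMYD3, with a BAF fold of 4.53. The KIF26A and C10orf120 regions are intergenic and the others lie in introns. A match describes letters in a window and does not show that a factor was bound there.

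Some of the regions look alike. When the 35770 windows were compared with each other, 7879 of them (22%) fell into 285 families of similar sequence, at 80% identity over 80% of the window. The largest family supplied 4648 of the 7879. It made up 13% of the regions and a close 12% of windows 2 kb away. For all families together, no share of other windows is given, so the 22% is a description without a background.

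Families are numbered by size, and 1 window stands as the representative of each. The representative of family 1 reads as an Alu element, the third as the 5′ end of a LINE-1 (L1) element, the fourth as the HERV-K-derived part of an SVA element and the sixth as LTR7, the long terminal repeat of the endogenous retrovirus HERV-H. These names rest on general knowledge of the sequences, since no repeat annotation was used, and families 2 and 5 are left without a name. Each name is a label taken from the representative and was not checked for the other windows of its family. The representative itself matched 1159 windows in family 1, of 4648 regions. It matched 83 in family 3 (574 regions), 48 in family 4 (308) and 24 in family 6 (166).

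The regions without BRM were narrow and low, and most had a peak of 1 subunit only. Both BRG1 and BAF155 had a peak at 11694 of them (32.7%), BRG1 alone at 10101 (28.2%) and BAF155 alone at 13975 (39.1%). The distal naive-only regions with BRM had both subunits in 84.5% of cases, and the distal naive regions shared with the primed state in 68.8%. The median fold was 2.88 for regions without BRM, 3.29 for those with BRM and 3.07 for shared ones, and median widths were 382, 743.5 and 543 bp.

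**Figure D1:**
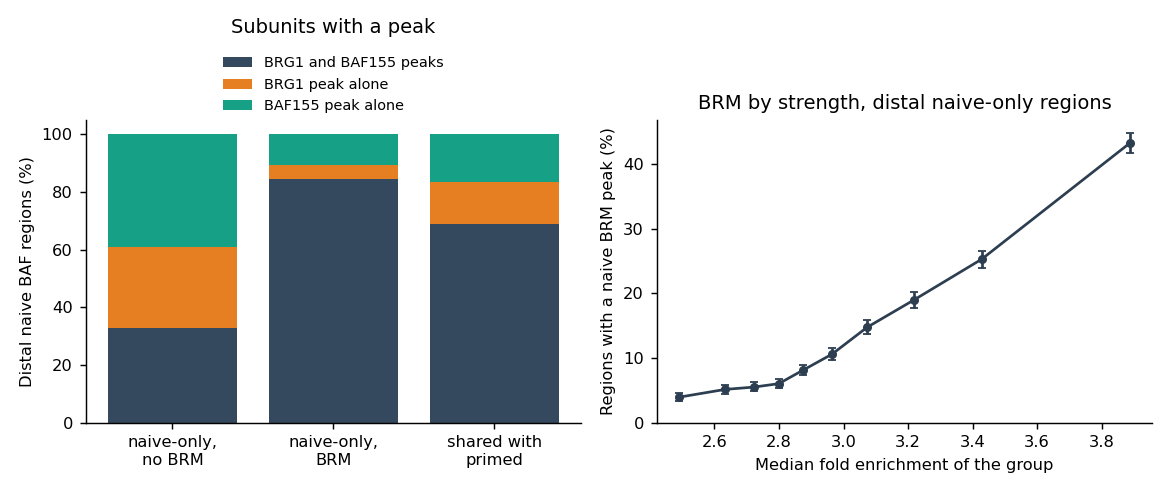
Left, share of distal naive BAF regions (%, stacked bars) with peaks of both subunits, BRG1 alone or BAF155 alone, for naive-only regions without BRM, naive-only regions with BRM and regions shared with primed cells. Right, share of distal naive-only regions with a naive BRM peak (%) in 10 groups of rising fold, plotted at the median fold of each group with 95% Clopper-Pearson intervals; it goes from 3.96% to 43.2%.

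Among the regions without BRM, those with both subunits had a median fold of 3.04 and a width of 579 bp, those with BRG1 alone 2.84 and 293 bp, and those with BAF155 alone 2.81 and 319 bp. The whole set covered 17.5 Mb, and its folds ran from 2.48 at the 5th to 3.69 at the 95th percentile, with a maximum of 6.47. Only 695 regions (1.94%) reached a fold of 4, against 15.7% of those with BRM. Presence of BRM rose with strength, from 3.96% of distal naive-only regions in the lowest of 10 groups by fold to 43.2% in the highest. It was 29.9% where both subunits had a peak, 2.83% at BRG1 alone and 4.27% at BAF155 alone. Whether weak regions lacked BRM or only a callable peak was not tested.

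The number of regions depended on the overlap rule, and was 45782 with a stricter rule of 50% coverage of each region, with 94.2% of distal naive-only regions then without BRM. Under the 25% rule, a naive BRM peak touched 61 regions (0.171%) by less than the 25% limit, and a primed BAF region touched 294 (0.822%). Just inside the BRM limit stood chr1:12218521-12218711 near VPS13D, covered to 24.7%, and just outside it chr3:128267818-128268211 near EEFSEC, covered to 25.1%. At the primed limit, chr12:117685773-117686044 near KSR2 was 24.7% covered and kept, and chr17:66533913-66534447 near PRKCA was 25.1% covered and left out. At the distance limit, 344 otherwise matching regions had their midpoint in the last 100 bp inside 1 kb of a transcript start and 358 had it in the first 100 bp beyond.

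The midpoint of a naive BRM peak lay within 5 kb of 5250 regions (14.7%) and within 100 kb of 77.7%, and the same shares for other positions of the genome were not computed. The median distance from one region to the next was 26.3 kb.

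Sequence composition set these regions apart from their own surroundings. Windows placed 2 kb to either side served as flanks, and classes were compared by odds ratios, called where the 95% Woolf interval excludes 1. Of 13 motifs searched on both strands, 11 were more frequent at the regions than in their flanks. KLF was found in 4.83% against 1.23% of windows (odds ratio 4.07, and 3.00 when compared within groups of like GC content). TFAP2 was found in 9.75% against 4.42% (2.34, and 1.79 by GC group), and the octamer motif OCT, read by the pluripotency factor OCT4, in 4.55% against 2.60% (1.78, and 2.49 by GC group).

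CTCF, the zinc-finger protein that marks insulators and loop anchors, had its motif in 0.903% of windows against 0.0923% of flanks (odds ratio 9.86, interval 7.57 to 12.9). The regions with BRM had a like contrast with their own flanks (7.84, interval 3.91 to 15.7), and the motif was present in 1.10% of all naive BAF regions and 2.29% of the distal shared ones. GATA letters were less frequent than in flanks (0.940), but within GC groups the ratio was 1.29. E-box letters were more frequent (1.15) but had a ratio of 0.960 within GC groups. The median GC content was 49% at the regions and 45% in the flanks.

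**Figure D2:**
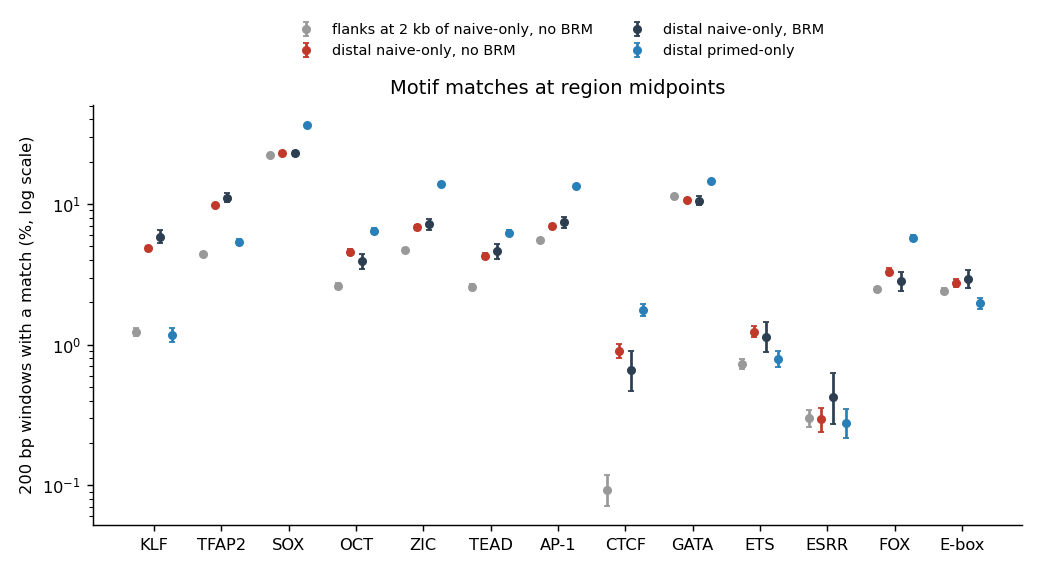
Share of 200 bp windows with at least 1 match of each of 13 motifs (%, log scale) with 95% Clopper-Pearson intervals, for flanks at 2 kb, distal naive-only regions without BRM, those with BRM and distal primed-only regions. KLF and TFAP2 points of the primed-only class lie below both naive-only classes, and its SOX, ZIC and AP-1 points lie above them.

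The regions differed from the 25895 distal primed-only BAF regions in 12 of 13 motifs. KLF was 4.83% against 1.17% (odds ratio 4.28, and 3.20 by GC group), and TFAP2 was 9.75% against 5.39% (1.90, and 1.47). ETS letters, read by ETS-family activators, had a ratio of 1.57 and E-box letters 1.41. In the other direction, ZIC letters, read by the ZIC factors of primed and neural cells, were present in 6.82% against 13.8% (0.456), AP-1 in 6.92% against 13.3% (0.484) and SOX in 23.2% against 36.5% (0.525). CTCF (0.507), FOX (0.563), TEAD (0.672), OCT (0.697) and GATA (0.710) were also less frequent than at primed-only regions. All of these calls held in the 4 alternatives run for this comparison. Distal naive regions shared with primed cells had KLF in 5.07% and TFAP2 in 11.9% of windows, both above the regions without BRM. Their shares of ZIC (9.68%), AP-1 (8.92%) and SOX (26.5%) lay between those of the classes compared here.

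Against the 5904 naive-only regions with BRM, the motif content was close. KLF was found in 4.83% without BRM and 5.86% with it (odds ratio 0.816, interval 0.724 to 0.919), TFAP2 in 9.75% and 11.1% (0.868, 0.794 to 0.948), and OCT in 4.55% and 3.91% (1.17, 1.02 to 1.35). The intervals of the other 10 motifs included 1, among them CTCF at 1.37 (0.982 to 1.91). These small differences moved with strength and width, which themselves differed between the classes. Within groups of like fold, KLF was 0.938 (0.826 to 1.07) and TFAP2 1.06 (0.965 to 1.17), while OCT was 1.27 (1.09 to 1.47). Within groups of like width, OCT was 0.958 (0.826 to 1.11) and CTCF 0.613 (0.434 to 0.865).

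The motifs divided the regions by the subunit that had the peak. CTCF letters were present in 1.66% of the regions with BRG1 alone, 0.624% of those with both subunits and 0.587% of those with BAF155 alone. The odds ratio of BRG1 alone against both was 2.69 (interval 2.04 to 3.55) and 2.61 within GC groups. KLF was less frequent at BRG1 alone (0.779) and at BAF155 alone (0.683) than at both, and OCT was less frequent at BAF155 alone than at both (0.736).

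**Figure D3:**
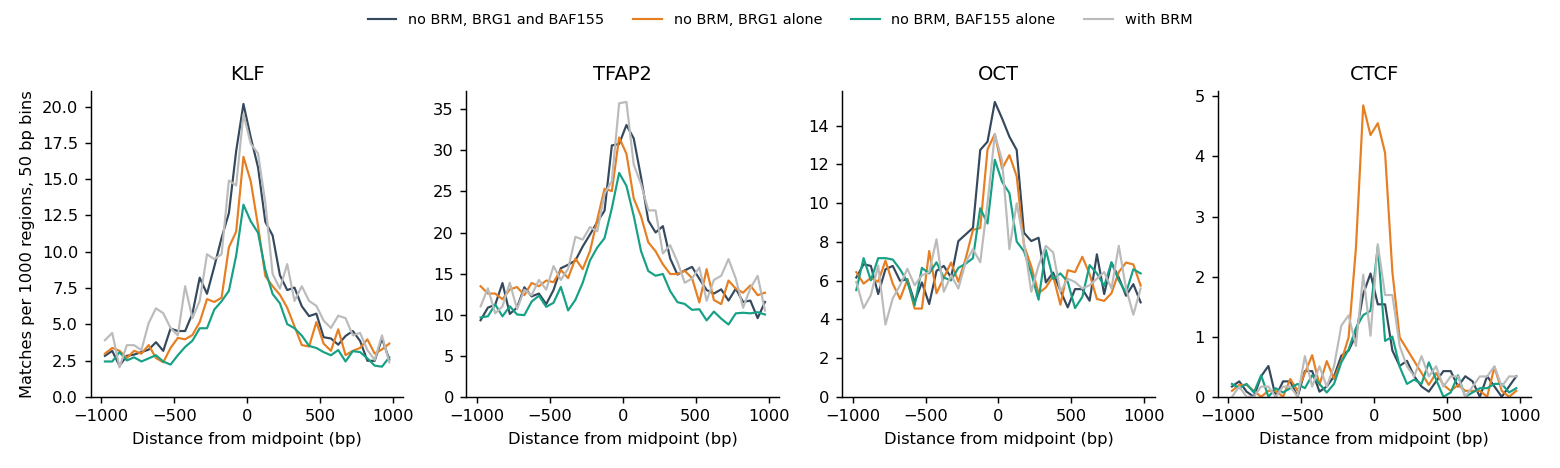
Matches per 1000 regions in 50 bp bins against distance from the region midpoint (bp) for KLF, TFAP2, OCT and CTCF. Lines stand for distal naive-only regions without BRM, with both subunits, BRG1 alone or BAF155 alone, and for those with BRM. The CTCF line of BRG1 alone reaches 4.85 matches per 1000 regions near the midpoint, against at most 2.05 where both subunits had a peak.

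The sequence families differed in how their shares compared with flanks and with other classes. Families were built and ranked on the regions without BRM, and windows of other classes joined by their best match to these. Family ratios against other classes therefore lean towards the regions without BRM and are given as a description. For families, flanks are windows 2 kb away on the side of higher coordinates only. Family 1, labelled Alu, held 4648 regions (13%), which is close to its 12% of flanks (odds ratio 1.10, interval 1.05 to 1.15). The same family made up 9.94% of regions with BRM (1.35, 1.24 to 1.48). At primed-only regions it made up 0.796%, against 6.02% of their own flanks (0.125, 0.108 to 0.145).

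Family 2 held 619 regions (1.73%) and was nearly absent from flanks (0.0559%). It carried SOX letters in 66.6% and OCT letters in 46.5% of its windows, against 23.2% and 4.55% over all regions without BRM. It was less frequent at regions with BRM (0.965%, odds ratio 1.81, interval 1.38 to 2.37) and at primed-only regions (0.170%). Its representative matched 6050 places in hg38, and 566 of them (9.36%) overlapped a region of the set.

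Family 3, labelled L1, showed the widest gap to the regions with BRM among the 6 largest families. It held 574 regions (1.60%) but only 17 of those with BRM (0.288%, odds ratio 5.65, interval 3.48 to 9.16), and 0.0447% of flanks. BRG1 alone had the peak at 46.5% of its regions, against 28.2% in the whole set. Of 5959 matches of its representative in hg38, 391 (6.56%) overlapped a region of the set.

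Family 4, labelled SVA, went the other way and made up 0.861% of regions without and 1.30% of regions with BRM (odds ratio 0.657, interval 0.511 to 0.845). Among families 2 to 10 its representative had the highest share of copies with a region, as 443 of 2448 matches (18.1%) overlapped a region of the set, while 4 overlapped a primed region. A naive SOX2 peak was present at 21 of its 308 regions and at 12 of the 166 of family 6, against 0.934% of all regions without BRM and 2.3% of all naive BAF regions. Family 5, with a median GC content of 73.0%, held 231 regions, of which 53.2% had TFAP2 letters, and was seen at 2 primed-only regions.

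Family 6, labelled LTR7, held 166 regions (0.464%) against 0.593% of regions with BRM (0.782, interval 0.542 to 1.13). SOX letters occurred in 60.2%, TEAD letters in 52.4% and KLF letters in 45.8% of its windows. Of 2509 matches of its representative, 157 (6.26%) overlapped a region of the set and 252 (10.0%) a primed BAF region.

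Smaller families had motif content of their own. Family 7 (99 regions) carried GATA letters in 70.7%, family 8 (91) AP-1 letters in 46.2%, and family 10 (51) ZIC letters in 62.7%. Family 9 (64 regions on 9 chromosomes) had BRG1 alone at 95.3% of its regions and made up 0.179% of the regions and 0.151% of the flanks (odds ratio 1.19, interval 0.825 to 1.70).

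**Figure D4:**
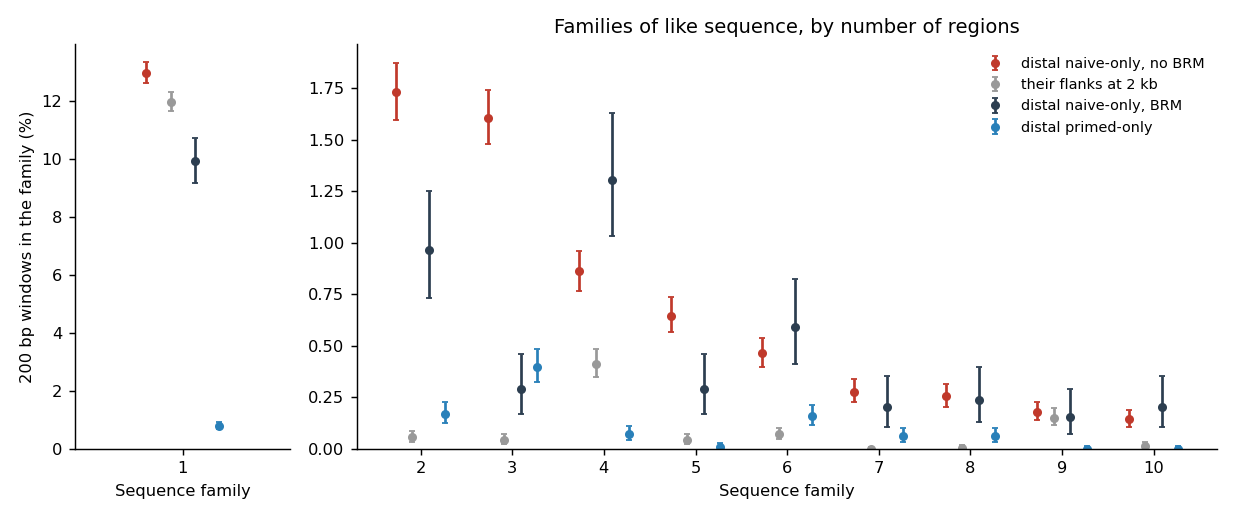
Share of 200 bp windows in each of the 10 largest sequence families (%), with 95% Clopper-Pearson intervals, for distal naive-only regions without BRM, their flanks at 2 kb, those with BRM and distal primed-only regions. Flanks lie on the side of higher coordinates only, and families were defined on the regions without BRM. Family 1 has its own panel because of its scale. In families 2 and 3 the regions without BRM lie above the other classes, and in family 4 the regions with BRM are highest.

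Reads from repeats can map to several places, so the central 75 bases, the read length of the BAF libraries, were searched in hg38. They occurred once at 97.8% of the regions without BRM, 98.2% of those with BRM and 99.7% of primed-only ones. Within families, the share was 93.0% for family 1, 98.4% for family 2, 86.8% for family 3, 62.0% for family 4 and 81.3% for family 6. The study's quality metrics give the naive BRG1 and BAF155 libraries a lower share of uniquely mapped reads than the primed ones. Whether this difference bears on the family shares of naive and primed regions was not tested. The families were defined on the regions without BRM, so families found only in other classes were not counted.

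SOX2, the pluripotency factor whose antibody and input played no part in choosing the regions, had few peaks at them. The SOX2 lists were short, with 1940 naive and 9290 primed peaks on chromosomes 1 to 22 and X. This length bounds the share that any large class of regions can reach. The study's quality metrics count more SOX2 peaks in each state than these lists hold. Of all naive BAF regions, 2.3% had a naive SOX2 peak and 4.89% a primed one. A naive SOX2 peak was present at 334 of the regions without BRM (0.934%, interval 0.837 to 1.04%), at 4.27% of those with BRM and at 7.14% of the distal shared regions. The odds ratio against the regions with BRM was 0.211 (0.179 to 0.25). It was 0.277 within groups of like fold, 0.412 within groups of like width and 0.441 where both subunits had a peak. Primed-only regions had a naive SOX2 peak in 0.162% (odds ratio 5.80, 4.21 to 8, for the regions without BRM against them).

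Within the set, naive SOX2 peaks were most frequent where both subunits had a peak. These regions held 266 of the 334, or 2.27% of 11694 regions, against 37 at BRG1 alone (0.366%) and 31 at BAF155 alone (0.222%). The 2.27% is close to the 2.3% of all naive BAF regions. Regions with both subunits were also wider, with a median of 579 bp against 293 and 319 bp. Groups of like width were not run for this contrast. SOX letters were present in 43.7% of the windows with a naive SOX2 peak and 23% of those without (odds ratio 2.60, and 1.91 by GC group). OCT letters were at 9.28% and 4.50% (2.17, and 1.48) and TEAD letters at 8.38% and 4.26% (2.06, and 1.67). TFAP2 letters were less frequent under SOX2 peaks (0.254, and 0.432 by GC group), where the median GC content was 42.5%.

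A primed SOX2 peak was present at 159 regions without BRM (0.445%) and 23 with BRM (0.390%), a ratio of 1.14 (0.737 to 1.77). With regions made from BRG1 peaks alone the ratio was 0.712 (0.622 to 0.814), in the other direction. At primed-only regions the share was 14.1%. Only 24 regions without BRM had a SOX2 peak in both states, and 3 had a primed BRM peak.

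The 10 highest naive SOX2 peaks at the regions show the range of loci. A peak of fold 26.1 lay at chr5:140671718-140673310, 1062 bp from the nearest start of DND1, a germ-cell RNA-binding protein, with a BAF fold of 3.48. One of 25.03 lay in an intron at chr6:30201818-30202386 near TRIM26, and one of 18.9 in an intron at chr12:64889050-64890212 near TBC1D30. Others were near MAGEA10 (17.1, within family 4), CSF3R, the G-CSF receptor (17.1), CEP112 (15.8), HPSE, a heparanase (15.7), AQP4, a water channel (15.4), and SLA2 (15.4). Of the 10, the CSF3R region alone also had a primed SOX2 peak, and the SLA2 region alone lacked a BAF155 peak.

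Within genes, 57.1% of the regions without BRM lay in introns, 5.33% in exons and 37.6% were intergenic. With BRM the shares were 54.5%, 5.06% and 40.4%, an odds ratio of 1.11 (1.05 to 1.18) for introns, which was 1.06 and no longer called within groups of like width. Chromosome 19 was the densest, with 37.9 regions per Mb, followed by chromosome 17 with 25.2, and the X chromosome had the fewest with 5.85. The share of distal naive-only regions without BRM ran from 81.5% on chromosome 19 to 90.6% on X.

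The strongest region of the set lay in an intron at chr2:216367144-216367453 near MARCHF4, a ubiquitin ligase, with a BRG1 fold of 6.47 and a BAF155 fold of 3.71. An intron near GRIK4, a kainate receptor subunit, held the next at chr11:120877856-120878492 (5.98), whose window carries the TEAD match printed above. A region at chr14:98580407-98580687 (5.88) was intergenic and far from its nearest start, that of BCL11B, a zinc-finger repressor. The others were near TMEM132D (5.69), FOXE1, a forkhead factor (5.54), CHAMP1 (5.47), SRGAP3 (5.42), SCNN1D, a sodium channel subunit (5.35), IL17A, a cytokine (5.33), and OOSP1 (5.33). The CHAMP1 window held CTCF letters, SRGAP3 was the only one of the 10 without a BRG1 peak, and none of the 10 was in a sequence family.

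By nearest start, 54.9% of the regions lay within 20 kb of a protein-coding gene, and 45.8% of all protein-coding genes had at least 1. Regions with BRM gave such a region to 13.4% of genes and primed-only regions to 29.6%. Gene lists were set against these shares as a description. Distal regions shared with primed cells and regions that were not distal were not counted by gene. Of 21 naive and preimplantation genes, 19 (90.5%) had a region without BRM, 57.1% one with BRM and 38.1% a primed-only one. Of 15 core pluripotency genes, 13 (86.7%) had a region without BRM, 20.0% one with BRM and 46.7% a primed-only one.

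**Figure D5:**
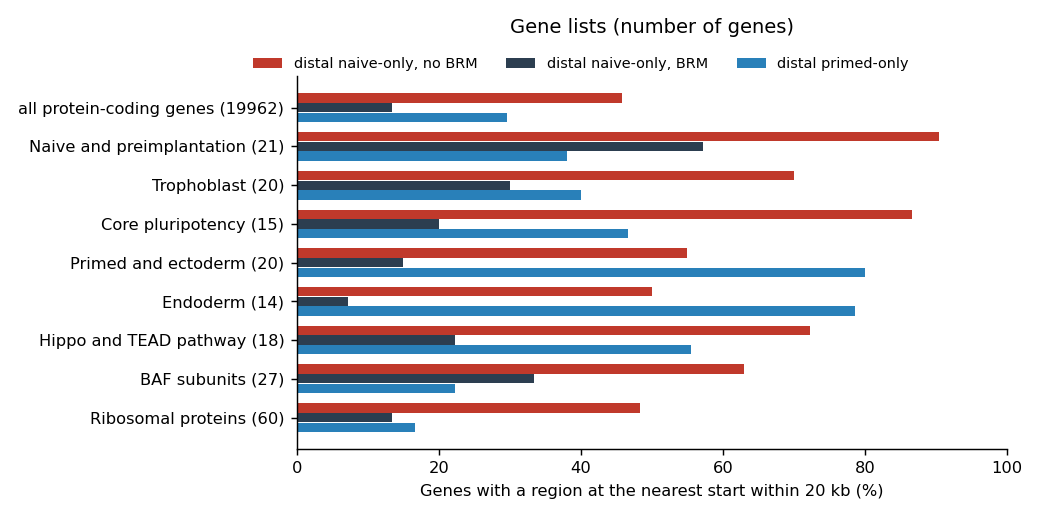
Share of genes (%) with a region whose nearest protein-coding start is theirs and lies within 20 kb, for all protein-coding genes and 8 lists (number of genes in brackets). Bars show distal naive-only regions without BRM, those with BRM and distal primed-only regions. Naive and core pluripotency genes have the longest bars without BRM, and primed-ectoderm and endoderm genes have longer primed-only bars.

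Other lists stood closer to the background. Trophoblast genes had a region without BRM in 14 of 20 cases, Hippo-TEAD pathway genes in 13 of 18, BAF subunit genes in 17 of 27 and ribosomal protein genes in 29 of 60. Primed and ectoderm genes had one in 11 of 20 cases and a primed-only region in 80%. Endoderm genes had one in 7 of 14 cases and a primed-only region in 78.6%.

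Among naive genes, KLF4, a factor of the naive network, and DPPA3, a maternal-effect gene of the preimplantation embryo, had 4 regions without BRM each. The highest KLF4 region was at chr9:107480258-107480752 with a fold of 3.95, and KLF4 had no region with BRM and 2 primed-only ones. IL6ST, the gp130 receptor chain that signals for LIF, had 3 regions without BRM, none with BRM and no primed-only one. Its highest region had a fold of 3.76 at chr5:55933920-55934498. Over all protein-coding genes, 19627 regions without BRM and 3424 with BRM had a start within 20 kb. The list held 45 regions without BRM, 17 with BRM and 14 primed-only ones. DNMT3L, FGF4, ESRRB, OLAH, VENTX and TFAP2C had 3 each, with highest folds between 2.55 for OLAH and 3.27 for TFAP2C.

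TFAP2C, a factor that opens naive enhancers, had its highest region at chr20:56646153-56647011, besides 2 regions with BRM and 1 primed-only region. KLF5, TFCP2L1, SUSD2 (a naive surface marker, 3.49), ARGFX, ALPG and PRDM14 had 2 regions each, and DPPA5, TBX3, HORMAD1 and NLRP7 had 1. KLF17 and KHDC1L had none without BRM and 1 with BRM each. FGF4 had as many regions with BRM as without.

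The core pluripotency genes together had 30 regions without BRM, 3 with BRM and 8 primed-only ones. Of the 15, 11 had a region without BRM and none with it, a share not computed over all protein-coding genes. Of all these genes, 45.8% had a region without BRM and 13.4% one with BRM. NODAL, a TGF-beta family ligand, had 4 regions without BRM, none with BRM and no primed-only one. Its highest region was at chr10:70452125-70452688 (2.96). The paper also shows NODAL as a gene with BAF-bound enhancers shared by both states. ZFP42, a pluripotency marker also called REX1, had 4, the highest at chr4:188014990-188015855 (3.41). DPPA2, L1TD1 and GDF3 had 3 regions each, POU5F1, which encodes OCT4, NANOG, SALL4, UTF1 and LEFTY2 had 2, and LIN28A, DPPA4 and LEFTY1 had 1. The POU5F1 regions had a highest fold of 2.66, near the lower end of the set, and LIN28A the highest of the list with 4.19. SOX2 itself had no region without BRM, 1 with BRM and 1 primed-only, and TDGF1 had none of these kinds.

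In the trophoblast list, TEAD4, TFAP2C and GCM1 had 3 regions without BRM each, KRT8 had 2, and GATA2, TFAP2A, KRT7, KRT18, KRT19, TP63, ENPEP, MSX2 and TEAD3 had 1. Their highest folds ran from 2.48 at TFAP2A to 3.33 at TEAD3. GATA3, a trophoblast and amnion regulator, had no naive-only region of either kind and 10 primed-only ones.

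Regions without BRM piled up at some genes. In all, 800 genes had 5 or more, and ABR, a regulator of small GTPases, had 25 across its introns and surroundings, with folds from 2.35 to 3.86. RERE, a transcriptional corepressor, had 21, NXN and PACSIN2 20 each, MRTFA, the actin-regulated coactivator of SRF, 19, and CMIP and RAP1GAP2 16 each. CTNNA1, FOXP1, GAS7, TIAM1 and TNS3 tied with 15. At RERE, FOXP1 and CMIP primed-only regions were also many, with 9, 16 and 6, whereas NXN had none. Alu windows made up 6 of the 25 at ABR and none at CMIP, GAS7 and TIAM1. Counts were not scaled to gene length or to the number of annotated starts.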

How the data were processed

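Peak lists of BRG1, BAF155, BRM and SOX2 from naive and primed WIBR3 cells were analysed. According to the study's methods, reads were trimmed with trim_galore, mapped to hg38 with Bowtie2 2.3.4 and called against input with MACS2, as broad peaks for BAF subunits (75-bp single-end reads) and narrow peaks for SOX2 (150-bp paired-end reads). The submitters' processing notes also name FastQC 0.10.1 and SAMtools 0.1.19. The deposited lists give a position, a score, a linear ratio of fold enrichment over input, and p-values and q-values as −log10, all set by the authors' peak caller. The primed BRM list and the second SOX2 list of each state, as deposited, were used for positions alone. The study's quality metrics give the naive BRM library fewer reads, and the primed BRG1 library more reads, than the naive BRG1 library. Read totals were not used here, so list length was not set against depth.

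BRG1 and BAF155 peaks of a state were merged where they touched, and overlap meant that 25% of either region was covered. Among the BRG1, BAF155 and naive BRM lists, 31 peaks on other chromosomes were left out, all from the naive BRG1 list. The same limit kept 1940 of 1941 naive SOX2, 9290 of 9291 primed SOX2 and 167 of 168 primed BRM entries. Transcript starts, exons and introns came from GENCODE release 44. Shares carry Clopper-Pearson and odds ratios Woolf 95% intervals, or Mantel-Haenszel ratios within 10 groups of GC content, fold or width. No p-value is given, because each group has 1 library.

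Motifs were searched on both strands of the 200 bp at each midpoint. The letters were GGGCGGGGC or GGGCGTGGC or GGGTGGGGC or GGGTGTGGC for the KLF family, GCCNNNGGC for TFAP2, and ATGCNAAT for the octamer (OCT). SOX factors were searched as CATTGT and with the alternative spelling CTTTGT, ZIC factors as CCTGCTG, the TEAD family as ACATTCC, and AP-1 dimers as TGANTCA. The GATA family was searched as AGATAA, the ETS family as CCGGAAG, the ESRR receptors as TCAAGGTCA, the forkhead family (FOX) as TGTTTAC, the E-box as CACGTG, and CTCF by its own longer motif. Matches of different motifs may share bases. Families are groups of windows linked by blastn 2.17.0 matches (word size 16) at 80% identity over 80% of the window. Scripts used Python 3.11.15, numpy 2.4.6, pandas 2.3.3, scipy 1.17.1 and bedtools 2.31.1, and the counting and odds ratio steps were tested on simulated data.

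Named regions and genes were the 10 regions of highest fold, the 10 highest naive SOX2 peaks at regions, the 10 genes with most regions (with ties) and the genes of the naive, trophoblast and core pluripotency lists. These regions are named by their nearest protein-coding start, at any distance. Regions on chromosome 8 were counted but not named. Printed windows were the first 2 by fold, with both subunits, that held a KLF, TFAP2, TEAD or AP-1 match, or a SOX match under a naive SOX2 peak. A few genes and windows that this rule names are not reported here. The regions and the gene and motif lists were chosen with earlier results of these data known.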

Additional observations from a re-analysis of the deposited data

How the results depend on the processing

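Of 465 values recomputed under alternative settings, 365 stayed the same, 20 kept the direction without the call, 30 gained a call, 38 moved and 12 reversed. A ratio stayed the same if its call did, so uncalled ratios that crossed 1 are among the 365. Counts and shares were labelled as the same or moved by a set limit of change. The naive SOX2 contrast with the regions with BRM stayed below 1 in every alternative run, at 0.199 to 0.552. The number of regions was 18932 with peaks of −log10 q of at least 2, 874 at a minimum fold of 4 and 11694 with both subunits. The share without BRM moved to 94.2% (50% of both regions covered), 86.7% (−log10 q of 2), 38.8% (fold of 4), 78.2% (BRG1 alone), 82.1% (BAF155 alone), 86.2% (over 5 kb from starts), 87.5% (500 bp regions), 83.8% (no BRM within 5 kb) and 70.1% (both subunits). The primed SOX2 ratio was 0.712 from BRG1 peaks alone, which reversed it. Families held 3080 regions at 90% identity.

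Intron ratios fell to 0.917 (fold of 4), 1.05 (BRG1 alone, 500 bp regions, both subunits) and 1.06 (width groups). Intergenic ratios were 0.940 (50% covered), 1.12 (fold of 4), 0.945 (500 bp), 0.948 (width groups) and 0.935 (both subunits), and exons were at 0.817 (50% covered).

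Against the regions with BRM, KLF stayed below 1 in all 17 alternatives (0.689 to 0.943). TFAP2 reversed to 1.02 (−log10 q of 2), 1.06 (fold groups) and 1.01 (both subunits), and OCT to 0.958 and CTCF to 0.613 in width groups. The count of motifs more frequent without BRM was 1. It was 2 with any overlap, a fold of 4, over 5 kb or fold groups. It was 3 with −log10 q of 2, BRG1 alone, no BRM within 5 kb, both subunits or no family member, and 0 with 50% covered, 500 bp regions, GC groups, width groups or windows at the highest peak. The count less frequent was 2. It was 4 with 50% covered, 1 over 5 kb or in fold groups, 6 in width groups, 5 with 400 bp windows or windows at the highest peak, and 0 with −log10 q of 2, a fold of 4 or both subunits. Against flanks, GATA reversed to 1.29 in GC groups and 1.06 outside families, which left 0 motifs less frequent, and E-box reversed to 0.960 in GC groups. The cause of these changes was not tested.

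The settings with both subunits, unique central bases, no family, windows at the highest peak, and GC groups for the flanks were chosen after seeing the data. No paired analysis was possible because each group holds 1 library or 1 list. There are no replicates and read totals were not used here, so whether a region missing from a list lay just below the calling threshold was not tested.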
